A study of Mus musculus with 8 samples.

Results

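Regions of open chromatin inside very long genes were examined in leukemic granulocyte-macrophage progenitors by ATAC-seq, which tags accessible DNA with a transposase. The lists of peaks from 8 libraries were merged wherever peaks shared at least 1 bp, which gave 138385 union regions on the 19 autosomes and X. A region was counted as inside a very long gene when its strongest summit lay within a protein-coding gene spanning 800 kb or more (mm10) and over 1 kb from the ends of protein-coding genes. This applied to 1308 regions, 0.945% of the union, in 91 of the 98 genes of that span. Within the union, peak strength entered this choice only in picking the summit of each region. The rule itself was chosen with earlier results of these data known.

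The cells were sorted from bone marrow of mice with leukemia driven by the MLL-AF9 fusion, and all groups share that leukemia. The 2 libraries called 4S-A carried the Dek-Ser306A/Ser308A/Ser311A/Ser312A mutant, in which serines of the chromatin protein DEK are alanines. KO 1 and KO 2 were Dekfl/fl,MX1-Cre, and KO 3 was Dekfl/fl;Tie2-Cre. Of the controls, called FL, FL 1 and FL 2 were Dekfl/fl without Cre and FL 3 was Dek+/+. KO 1, KO 2, FL 1 and FL 2 form the Mx1-Cre set, and 4S-A 1, 4S-A 2, KO 3 and FL 3 form the Tie2-Cre set. The Mx1 promoter that drives the first Cre responds to interferon, and the Tie2 promoter is active in endothelial and blood-forming cells. The labels give neither the age of the mice, nor the deleted part of Dek, nor whether libraries of a group came from separate animals, so p-values measure only the spread between these libraries.

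Genes of this size are long mainly because of their introns, and many encode synaptic adhesion proteins, ion channels and their partners that are best known from neurons. Several, such as Fhit and Wwox, are known in human cells as common fragile sites, stretches that replicate late and break under replication stress. A smaller number are active in blood cells, and their introns can hold enhancers and additional start sites that give shorter transcripts.

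A region deep inside a gene can lie at the start of a transcript, but few regions did. Of the 1308 regions, 17 held a RefSeq start site and 11 held a start site of the same gene. Whether these starts were used was not tested. RefSeq start sites (GRCm38.p6, the assembly also called mm10) were available for 77 of the 98 genes, 128 sites in all. Of the 69 sites over 1 kb inside their gene, 12 lay in a region and 4 lay in a region held by all 8 libraries, meaning that every library had a peak there. These 4 belonged to Fhit, Marchf1 and, at 2 sites, Celf2. In each of these genes the outermost start had no peak in any library. The 250 bases before the outermost and the internal start are given for Fhit, Celf2 and Marchf1, so that the start without peaks can be read beside the start with peaks in every library. Capitals mark CG pairs, the dinucleotide that is dense in CpG island promoters.
Fhit, outermost start: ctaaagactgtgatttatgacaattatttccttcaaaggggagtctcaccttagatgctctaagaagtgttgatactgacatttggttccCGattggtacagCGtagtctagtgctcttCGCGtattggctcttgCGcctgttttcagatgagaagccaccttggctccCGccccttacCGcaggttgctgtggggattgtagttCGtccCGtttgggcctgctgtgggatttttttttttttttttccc
Fhit, internal start: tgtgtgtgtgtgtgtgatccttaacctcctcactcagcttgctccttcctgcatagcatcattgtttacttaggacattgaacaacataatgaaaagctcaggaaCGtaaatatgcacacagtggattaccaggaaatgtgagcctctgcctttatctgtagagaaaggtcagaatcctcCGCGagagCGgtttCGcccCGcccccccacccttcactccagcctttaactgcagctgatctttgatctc
Celf2, outermost start: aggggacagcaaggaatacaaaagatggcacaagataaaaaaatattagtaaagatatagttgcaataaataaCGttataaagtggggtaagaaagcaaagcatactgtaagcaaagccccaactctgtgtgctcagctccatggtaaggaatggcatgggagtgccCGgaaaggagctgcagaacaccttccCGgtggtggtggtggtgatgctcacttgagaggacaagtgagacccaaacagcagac
Celf2, internal start: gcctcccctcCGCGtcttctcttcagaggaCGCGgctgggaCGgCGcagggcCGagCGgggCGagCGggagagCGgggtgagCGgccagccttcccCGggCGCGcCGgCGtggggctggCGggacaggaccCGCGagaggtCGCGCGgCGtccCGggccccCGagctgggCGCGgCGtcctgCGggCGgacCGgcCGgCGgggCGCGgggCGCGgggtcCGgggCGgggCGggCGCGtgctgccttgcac
Marchf1, outermost start: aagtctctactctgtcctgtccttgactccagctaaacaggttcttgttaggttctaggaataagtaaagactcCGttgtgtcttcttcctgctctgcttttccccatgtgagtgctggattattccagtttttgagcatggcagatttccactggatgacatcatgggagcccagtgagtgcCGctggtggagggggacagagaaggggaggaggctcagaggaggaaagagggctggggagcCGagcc
Marchf1, internal start: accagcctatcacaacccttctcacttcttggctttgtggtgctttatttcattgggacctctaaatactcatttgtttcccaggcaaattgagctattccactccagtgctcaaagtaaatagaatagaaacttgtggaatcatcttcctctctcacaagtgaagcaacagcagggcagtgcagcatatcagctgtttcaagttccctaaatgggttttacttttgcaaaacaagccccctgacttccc
In the order printed, the Fhit stretches are chr14:11162036-11162285, minus strand, and chr14:10453459-10453708, minus strand. The Celf2 stretches are chr2:7396199-7396448, minus strand, and chr2:6872036-6872285, minus strand, and the Marchf1 stretches are chr8:65617790-65618039, plus strand, and chr8:66386051-66386300, plus strand. The internal Celf2 stretch held 43 CG pairs and the outermost 3, while the internal Fhit stretch held 6 against 9 at its outermost start and the internal Marchf1 stretch held 0 against 3. Over all 32851 RefSeq starts the median was 6 pairs. Stretches with a peak in all 8 libraries therefore included both very CG-rich and CG-free ones. Over all 128 sites, those near gene ends included, the median was 20 pairs at the 16 sites held by all 8 libraries. It was 18 at the 18 sites held by 1 to 7 libraries and 7 at the 94 sites held by none.

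Both strands of these stretches were searched for short motifs, none of which contains another. GGGCGG, the box bound by SP and KLF factors, was present at the internal Celf2 start and at both Fhit starts, and 32.7% of all RefSeq starts hold it. CCAAT was present at the outermost Fhit start and at the internal Marchf1 start (33.85% of all starts), and TATAAA at the outermost Celf2 start (12.4%). CCGGAAG of the ETS family (6.91%) and GAGGAAGT of PU.1 (2.44%) did not occur in these windows. Such matches describe letters and not binding.

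Fhit encodes a dinucleoside polyphosphate hydrolase. Its internal start lay 708.6 kb inside the gene, in a region (chr14:10452574-10453837) at percentiles of 97.4 and 96.5 in 4S-A, 92.7, 91.6 and 96.4 in KO, and 79.0, 85.4 and 96.9 in FL. A percentile is the rank of a peak's −log10 q within the list of its own library, the strongest peak having the highest. The region was therefore among the strong peaks of every library, lowest in FL 1 and FL 2. Celf2 encodes an RNA-binding regulator of splicing, and its internal start at 524.3 kb (region chr2:6871985-6873043) ranged from the 33.2 percentile in KO 2 to 62.1 in 4S-A 1. Its other internal start with peaks in every library, at 674.7 kb (chr2:6721022-6722007), held 7 CG pairs and ranged from 23.5 in FL 1 to 77.5 in 4S-A 1. Marchf1 encodes a membrane ubiquitin ligase that lowers MHC class II at the cell surface. Its internal start at 768.3 kb (chr8:66385992-66386572) had percentiles of 73.1 and 62.6 in 4S-A, 47.9, 65.2 and 77.3 in KO, and 66.9, 73.4 and 81.6 in FL. At the Celf2 start at 524.3 kb both 4S-A values, 62.1 and 51.5, lay above the FL values of 46.8, 49.7 and 44.8, and at the other 3 starts 4S-A and FL overlapped.

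Starts within 1 kb of a gene end serve as background. Of 59 such sites, 22 lay in a region and 12 in a region held by all 8 libraries. Among these 22 sites, that of Thsd7b lay in a member, since the summit of the region lay over 1 kb from the gene end. The 16 genes with a gene end region in all 8 libraries held 365 members, a median of 15 per gene. The 28 genes whose gene end region was held by 1 to 7 libraries held a median of 12, and the 54 genes with no gene end region a median of 4. Pde4d, Hdac9, Nrg1, Fhit and Marchf1 were exceptions among the last, with no gene end region and 108, 44, 42, 32 and 25 members.

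Regions were sparse inside these genes and unevenly divided among them. The union held 11.7 regions per Mb inside very long genes and 74.2 per Mb inside shorter genes. Taking genes by span, the density was 94.1 per Mb below 50 kb, 86.9 from 50 to 100 kb, 78.4 from 100 to 200 kb, 58.4 from 200 to 400 kb, 35.3 from 400 to 800 kb and 11.8 from 800 kb (there each gene is counted by itself, overlapping genes included). The median gene held 6 regions. Pde4d, Wwox and Lrmda together held 255 regions (19.5%), and the 15 genes with the most held 682 (52.1%).

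**Figure D1:**
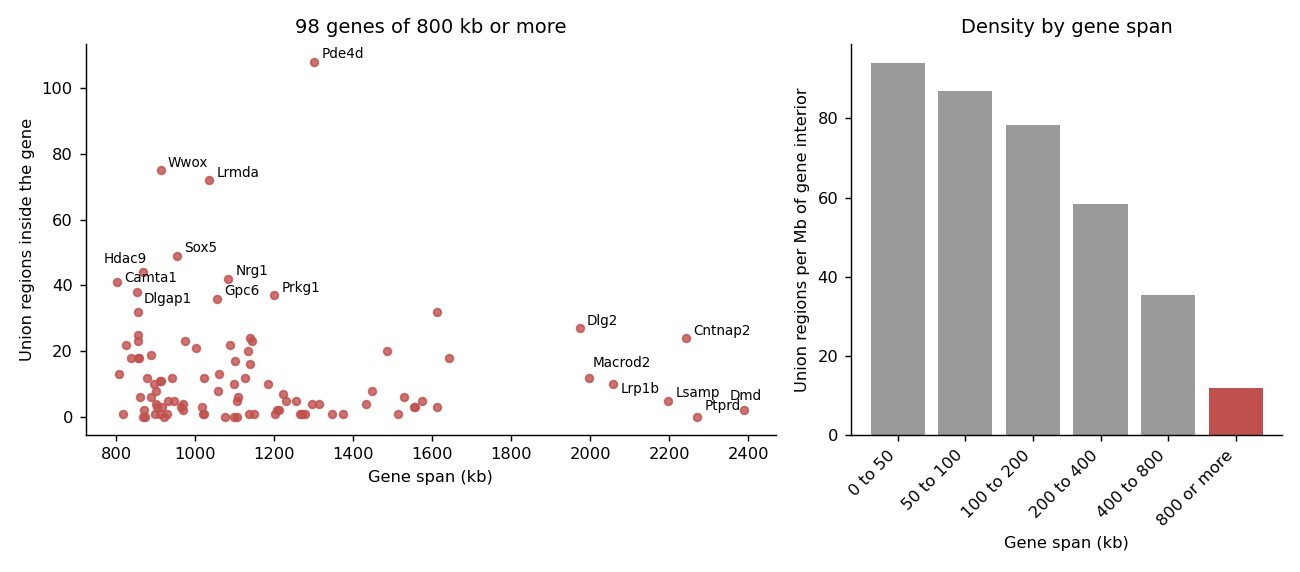
Left, union regions inside each of the 98 genes of 800 kb or more against gene span in kb, 1 point per gene. Right, union regions per Mb of gene interior for all protein-coding genes by span; Pde4d stands highest on the left with 108 regions, and of the longest genes Dlg2 and Cntnap2 hold 27 and 24 and Dmd 2, while the bars on the right fall with span, the lowest being 11.8 per Mb from 800 kb.

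Pde4d (chr13:108654177-109955969), which encodes a phosphodiesterase that degrades cAMP, held 108 regions, 22 of them in all 8 libraries. Wwox (chr8:114439635-115352712), a WW-domain oxidoreductase, held 75, and Lrmda (chr14:22019504-23056093), named for a role in melanocyte differentiation, held 72. These genes reached 83.0, 82.1 and 69.5 regions per Mb, against 74.2 inside shorter genes. Sox5, a transcription factor of the SOX family, held 49 regions, the class IIa deacetylase gene Hdac9 held 44, and Camta1, a calmodulin-binding transcription activator, held 41. Nrg1 encodes a ligand of ERBB receptors and held 42 regions, 25 of them within 100 kb. Erbb4, which encodes a receptor for it, held 0 regions. Dlgap1, a scaffold of synapses, held 38, the cGMP-dependent kinase gene Prkg1 held 37, the glypican gene Gpc6 held 36, Fhit and Celf2 held 32 each, the synaptic scaffold gene Dlg2 held 27, Marchf1 held 25, and Cntnap2 and Galntl6 held 24 each.

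At the other end, 39 genes held 1 to 5 regions. Dmd, the dystrophin gene and the longest of the 98 at 2390 kb, held 2. Among genes of 1 Mb or more with any region, the lowest densities were 0.66 per Mb in Dpp10, a potassium channel partner, 0.73 in Il1rapl1 and 0.78 in Il1rapl2, both interleukin receptor-like genes of synapses, 0.74 in Naaladl2, and 0.79 in Agbl4 and in Cntn5, a contactin gene. Ptprd, Auts2, Dcc, Erbb4 and Grm7 held 0 regions. Gm38666 and Gm38667, predicted genes that share their interior with Gm37013, were counted under Gm37013. The 5 genes on X held 17 regions, 2.41 per Mb, against 12.1 per Mb on the autosomes.

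Regions inside a gene lay in clusters. In Marchf1, 17 of 25 regions lay within 100 kb, and its longest stretch without a region was 539.4 kb. In Celf2, 20 of 32 lay within 100 kb, in Dlgap1 17 of 38, and in Hdac9 16 of 44. In Wwox the longest stretch without a region was 53.8 kb, the shortest such value among the 15 genes with the most regions. Over the 1018 members of genes with a known strand, 35.0% lay in the first of 3 equal parts of the gene, 25.6% in the middle part and 39.4% in the last.

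The 98 genes were grouped by lists of known roles. Of 62 genes listed for synaptic adhesion and cell recognition, 36 were very long, and 34 of these held 234 regions, a median of 4 per gene and 5.25 per Mb. Channels, transmitter receptors and their partners gave 10 genes with 70 regions (6.50 per Mb), and genes of the dystrophin complex and muscle gave 3 with 28 (6.15 per Mb). Signalling enzymes and regulators gave 7 genes with 237 regions (27.9 per Mb), transcription and RNA regulators 8 with 202 (25.3 per Mb), and scaffold and polarity genes 5 with 129 (20.9 per Mb). Genes listed as expressed in blood cells and leukemia, Auts2, Celf2, Dpyd, Fhit, Immp2l, Pde4d and Wwox, held 254 regions (33.5 per Mb), of which Pde4d and Wwox gave most. The 20 common fragile site genes held 268 regions at 8.86 per Mb, from 0 in Auts2 and 2 in Dmd to 75 in Wwox. The 21 genes on no list, Lrmda among them, held 295. Some genes stand on more than one list.

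The threshold of 800 kb fell within a continuum. Just above it, Camta1 (802.3 kb) held 41 regions, Adgrl3 (808.7 kb) 13, Cacna2d3 (817.8 kb) 1 and Npas3 (824.2 kb) 22. Just below it, Ptprn2 (792.5 kb) held 30, Inpp4b (792.1 kb) 11, Lrrtm4 (791.3 kb) 8 and Arhgap26 (774.7 kb) 95.

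Members were held by fewer libraries than regions inside shorter genes. All 8 libraries held 145 of the 1308 (11.1%), against 19.3% of the 64864 regions inside shorter genes and 60.5% of the 16511 regions at gene ends. A single library held 427 (32.6%), against 25.1% inside shorter genes and 11.6% at gene ends. Averaged over the libraries, 40.5% of members were held, against 50.6% of regions inside shorter genes, a difference of −10.2 percentage points (SD 4.01, n = 8). The difference was negative in 8 of 8 libraries (two-sided exact sign-flip permutation p = 0.00781, the smallest possible). Per library, very long genes held 4.72 regions per Mb and shorter genes 37.5, a difference of −32.8 (SD 10.8, n = 8, negative in 8 of 8, exact permutation p = 0.00781).

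**Figure D2:**
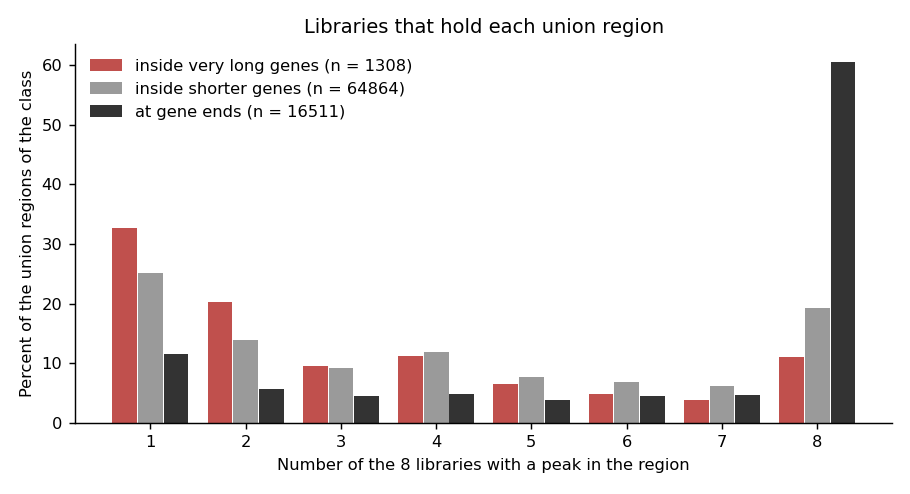
Percent of the union regions of each class, on the vertical axis, by the number of the 8 libraries with a peak in the region. Inside very long genes the tallest bar is at 1 library (32.6%) and 11.1% are held by all 8; at gene ends 60.5% are held by all 8.

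Members were also narrower and, by −log10 q, ranked lower. Their median width was 346 bp, against 390 bp inside shorter genes. The median percentile per library averaged 38.4 inside very long genes and 45.7 inside shorter genes, a difference of −7.31 (SD 3.95, n = 8, negative in 8 of 8, exact sign-flip permutation p = 0.00781). In equal-length lists the difference was −4.95 (SD 4.85, n = 8, negative in 7 of 8, exact sign-flip permutation p = 0.0156). In uncut lists ranked instead by the fold enrichment the authors deposited, it was 1.31 (exact permutation p = 0.406). The lower rank therefore holds for −log10 q only.

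The strongest members ranked high in every library. Lrmda had the strongest region held by all 8 libraries (chr14:22183096-22183965), with percentiles of 98.0 and 97.0 in 4S-A, 93.8, 94.7 and 97.6 in KO, and 93.7, 90.0 and 96.1 in FL. A region in Camta1 (chr4:151108066-151108946) averaged the 94.9 percentile, one in Sox5 (chr6:144570385-144571311) 93.8, and one in Wwox (chr8:115275980-115276995) 93.4. Dpp6, a potassium channel partner, had one at 93.4 (chr5:27206012-27206778), Sugct, an enzyme of glutarate metabolism, at 93.4 (chr13:17028033-17028967), and Ctnnd2, the delta-catenin gene, at 92.4 (chr15:30610386-30611050). The internal Fhit start, at 92.0, came next, followed by regions in Gpc6 at 91.5 and Galntl6 at 90.6. In these 10 regions the lowest single value was the 78.1 percentile of KO 1 at Galntl6.

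The lists differed in length, and read depth is unknown. They held 104605 and 94725 peaks in the mutants, 56245 (KO 1), 74026 (KO 2) and 93041 (KO 3) in knockouts, and 51510 (FL 1), 54887 (FL 2) and 91586 (FL 3) in controls, so the Tie2-Cre set had the longer lists and all 4S-A libraries belong to it. Counts are therefore also given from lists cut to the 51510 strongest peaks of each library, in which 693 regions met the rule. All 12 markers of the progenitors had a region in all 8 libraries, as did 3 of 4 neuronal, 3 of 3 endothelial, 3 of 4 mature myeloid, 1 of 3 erythroid, 1 of 3 T and NK, 1 of 3 B and 1 of 2 stem cell markers. Hbb-b1 (erythroid), Ncr1 (NK) and Ly6a (stem) had none. A peak at these genes therefore does not tell the cell types apart, and the part of other cells in the results was not tested. In sorted bulk cells, a site open in few cells and one open weakly in many cannot be told apart. Dek held a region in all 8 libraries (chr13:47104867-47106804), which checks nothing about the knockout as the deleted part is not given.

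The number of members held was 850 and 735 in 4S-A, 315, 455 and 590 in KO, and 289, 333 and 666 in FL. As a share of all regions of the library, this was 0.837 and 0.805% in 4S-A, 0.594, 0.659 and 0.652% in KO, and 0.606, 0.650 and 0.744% in FL. The 4S-A shares lay above all others, and KO and FL overlapped. The KO mean was 0.635 ± 0.0356% and the FL mean 0.666 ± 0.0702% (SD, n = 3 each), a difference of −0.0315 percentage points that was within the spread between libraries (exact two-sided permutation over libraries, p = 0.6, where 3 against 3 allows no p below 0.1). Without FL 3 the difference was 0.0075, the opposite direction. Inside the Mx1-Cre set the KO minus FL difference was −0.0014 points, and KO 3 minus FL 3 was −0.0916.

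In equal-length lists the shares were 0.685 and 0.678% in 4S-A, 0.582, 0.525 and 0.554% in KO, and 0.605, 0.595 and 0.597% in FL. Each KO share was below each FL share, with a difference of −0.0457 points (exact permutation p = 0.1, the smallest possible), −0.0469 inside the Mx1-Cre set and −0.0432 for KO 3 minus FL 3. This amounted to 284, 257 and 282 members held in KO against 289, 287 and 305 in FL.

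The 4S-A share averaged 0.821 ± 0.0225% (SD, n = 2), against 0.666 ± 0.0702% in FL (SD, n = 3), a difference of 0.155 points (exact two-sided permutation over libraries, p = 0.2, where 2 against 3 allows no lower p). It was 0.0778 points above FL 3 and 0.169 above KO 3, the other libraries of its set. In equal-length lists it was 0.0822 points above FL (exact permutation p = 0.2), 0.0842 above FL 3 and 0.127 above KO 3. Without Pde4d, Wwox and Lrmda, a choice made after their values were seen, the equal-length difference to FL was 0.0324 points.

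**Figure D3:**
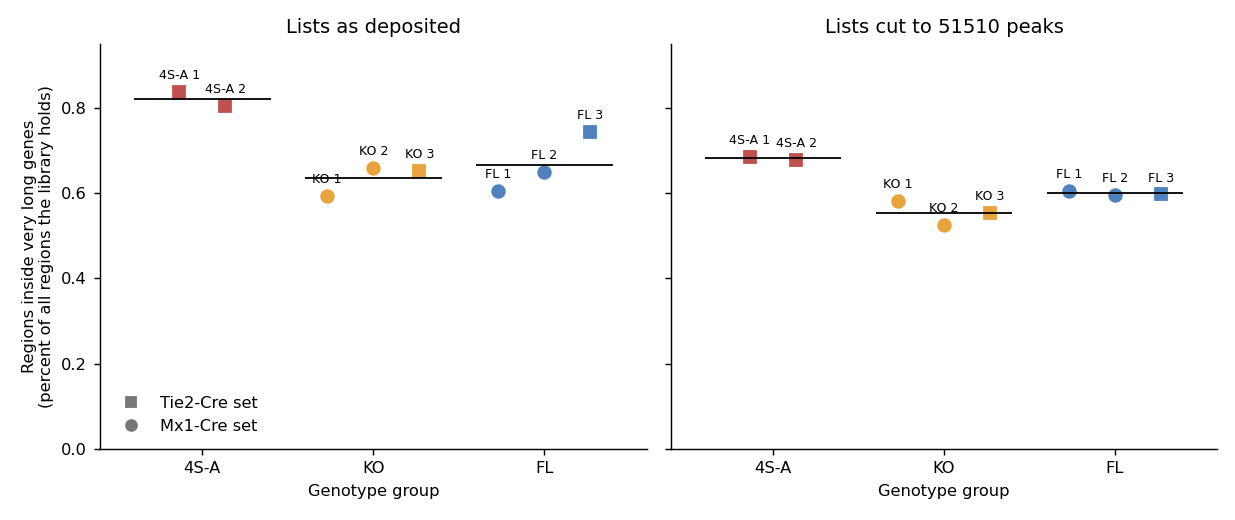
Regions inside very long genes as a percent of all regions each library holds, in lists as deposited (left) and cut to equal length (right), with points for libraries, squares for the Tie2-Cre set, circles for the Mx1-Cre set and lines for group means. In equal-length lists the 4S-A points lie at 0.685 and 0.678%, above the FL points, and the KO points lie below them.

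The median percentile of the members held was 40.4 and 41.8 in 4S-A, 39.8, 36.7 and 43.6 in KO, and 31.1, 32.8 and 40.6 in FL. The KO minus FL difference of group means was 5.21 (exact permutation p = 0.3), with 6.34 inside the Mx1-Cre set and 2.96 for KO 3 minus FL 3. In equal-length lists the KO and FL medians differed by 7.20 (exact permutation p = 0.1, the smallest possible). They did not overlap, but the closest values were 39.38 in KO 1 and 39.25 in FL 3. Without Pde4d, Wwox and Lrmda, a choice made after seeing the data, that difference was 7.70 (exact permutation p = 0.2). In lists as deposited the 4S-A minus FL difference was 6.27 (exact permutation p = 0.4), and against FL 3 alone it was 0.501. The 4S-A and FL medians of equal-length lists did not overlap and differed by 7.01 (exact permutation p = 0.2, the smallest possible), and the difference to FL 3 was 2.58. Against KO 3 the 4S-A difference had the opposite direction, −2.41 in equal-length lists and −2.45 in lists as deposited. FL 3 lay above FL 1 and FL 2, so the value depends on the set of the control.

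Member by member, few regions separated all KO from all FL libraries. Lost means held in each control library and nowhere in the other group, and gained means the opposite. Of 191 members held by all FL libraries, 5 were lost in KO (2.62%), where 0.214% of all union regions and 0.220% of those inside shorter genes were lost. Of 232 members held by all KO libraries, 2 were gained (0.862%), near the 0.754% over all regions. The count of losses was 9 without FL 1, 8 without FL 2 and 11 without KO 2, and that of gains was 38, 11 and 19 without FL 3, KO 1 and KO 3. In equal-length lists 3 were lost (1.97%, against 0.563% of all regions) and 1 was gained (0.671%, against 0.706%).

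The 5 lost members lay in 4 genes and were mostly weak. Thsd7b, a thrombospondin-domain gene, lost a region (chr1:129651477-129651853) that FL libraries held at percentiles of 60.4, 64.3 and 13.6. Sntg1, a syntrophin gene, lost one (chr1:8552043-8552395) at 20.4, 34.4 and 33.6, and Dlgap1 lost one (chr17:70720732-70721036) at 26.7, 43.6 and 13.6. The region lost in Npas3 (chr12:53581224-53581501), a neuronal bHLH-PAS transcription factor gene, stood at 11.4, 21.5 and 6.61. None of these 4 was held by 4S-A either. A gained member lay in Pard3b, a cell polarity gene (chr1:62051429-62051795), with 38.2 and 51.8 in 4S-A and 62.5, 42.2 and 33.4 in KO.

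Inside the Mx1-Cre set, 63 of 270 members were gained (23.3%) in KO 1 and KO 2, against 13.5% of all regions and 16.3% of those inside shorter genes. Losses numbered 8 of 195 (4.10%, against 2.07% of all regions). Gains numbered 198 without KO 1 and 104 without KO 2, and losses 28, 105 and 69 without KO 2, FL 1 and FL 2. In equal-length lists 30 were gained (14.0%, against 7.88%) and 22 lost (11.6%, against 5.01%). The strongest gains lay in Dab1, Lsamp, Astn2, Magi2 and Wwox. Lsamp, an adhesion gene of the IgLON family, had its region (chr16:42179944-42180903) at 92.5 and 90.5 in 4S-A, at 63.8, 70.4 and 61.6 in KO, and at 61.6 in FL 3, so that only FL 1 and FL 2 lacked it. Magi2, a synaptic scaffold gene, had a region (chr5:19895901-19896286) at 56.4 and 67.9 in KO 1 and KO 2 and in no other library.

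KO 3 differed from FL 3 at more members, without a replicate check. Of the 666 members of FL 3, 175 were missing in KO 3 (26.3%, against 14.4% of all regions and 15.6% of those inside shorter genes), and 99 of the 590 members of KO 3 were missing in FL 3 (16.8%, against 15.3%). In equal-length lists these shares were 24.3% (against 13.0%) and 18.1% (against 12.7%).

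The mutant libraries differed from FL 3 in both directions. Of 661 members held by both 4S-A libraries, 207 were not held by FL 3 (31.3%, in 49 genes), against 16.4% of all regions and 17.7% of those inside shorter genes. Of the 666 members of FL 3, 130 were in neither 4S-A library (19.5%, in 43 genes), against 11.7% of all regions. With 4S-A 1 alone 335 were gained and 148 lost, and with 4S-A 2 alone 264 and 194. Equal-length lists gave 88 gained (29.0%, against 13.8%) and 72 lost (23.6%, against 13.9%). FL 3 is the only control of that set, so there is no replicate check on its side.

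Members held by both 4S-A libraries and by no other numbered 154 (11.8%), against 5.95% of all regions and 6.13% inside shorter genes, and 59 of 693 in equal-length lists (8.51%, against 3.9%). They lay in 44 genes. The reverse, held by all FL and KO libraries and by neither 4S-A library, applied to 5 (0.382%, against 0.337%), and to 10 of 693 in equal-length lists (1.44%, against 1.31%). The 106 members held by all 4 libraries of the Tie2-Cre set and no other (8.10%) were near the 7.71% of all regions, and in equal-length lists there were 23 (3.32%, against 2.41%).

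The strongest regions of the mutant libraries that FL 3 lacked were held by few others. Nrg3, a ligand gene of the neuregulin family, had one at percentiles of 87.9 and 80.8 in 4S-A (chr14:39089833-39090779), and Astn2, which encodes astrotactin 2, a membrane protein of migrating neurons, at 82.4 and 79.1 (chr4:66282922-66283764). Those in the adhesion gene Sdk1 (chr5:141423538-141424019) stood at 77.7 and 83.4, and those in Robo2, a receptor for SLIT guidance cues (chr16:75292783-75293520), at 74.8 and 80.95. No FL or KO library held these 4. In Pard3b (chr1:62521172-62521839) the 4S-A values were 86.2 and 80.6, and KO 3 held the region at 2.77.

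Among regions of FL 3 missing from both 4S-A libraries, that in Cntnap2 (chr6:45271440-45272038) had percentiles of 91.9, 91.9 and 79.3 in KO and 83.3, 76.5 and 89.9 in FL. In Npas3 (chr12:53441877-53442532) a region stood at 37.9, 20.1 and 35.8 in KO and at 60.4 and 65.8 in FL 1 and FL 3. A region in Dab1 (chr4:104718412-104719814) stood at 35.2 in KO 2 and 78.0 in FL 3. In Gpc6 (chr14:117414674-117415427) one stood at 12.5 in KO 2 and 64.3 in FL 3, and in Asic2 (chr11:81847663-81848221) one at 13.3 in FL 1 and 61.6 in FL 3. The Cntnap2 and Npas3 regions were thus shared by KO and FL, and the last 3 were held by few libraries.

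Among the 145 members held by all 8 libraries, both 4S-A percentiles were above all FL percentiles at 67 (46.2%), against 31.2% of all regions held by all 8, and below them at 11 (7.59%, against 7.15%). All KO percentiles were above all FL percentiles at 6 (4.14%, against 3.82%) and below them at 0, where the background was 0.939%. A Pde4d region (chr13:109277522-109279146) stood at 67.2 and 78.9 in 4S-A, 46.9, 53.7 and 53.9 in KO, and 14.9, 27.8 and 42.6 in FL, without overlap between any of the groups. A Wwox region (chr8:115307360-115308761) stood at 90.9 and 88.9 in 4S-A, 79.7, 66.4 and 90.1 in KO, and 33.6, 58.0 and 64.9 in FL. A second in Wwox (chr8:114615849-114616865) had 92.9 and 86.4 in 4S-A, 58.1, 74.5 and 89.2 in KO, and 19.3, 14.9 and 78.0 in FL.

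Regions with lower percentiles in 4S-A than in FL included one in Sox5 (chr6:144670233-144671137), at 13.2 and 1.80 in 4S-A, 61.6, 74.6 and 59.7 in KO, and 26.5, 61.7 and 75.4 in FL. One in Npas3 (chr12:53587335-53588210) stood at 58.7 and 58.9 in 4S-A, 82.5, 91.2 and 80.3 in KO, and 85.8, 81.9 and 88.3 in FL. Anks1b, a postsynaptic ankyrin-repeat gene, had one (chr10:89883559-89883992) at 44.3 and 37.0 in 4S-A, 77.2, 81.8 and 60.4 in KO, and 62.2, 69.6 and 64.3 in FL. One in Wwox (chr8:114834709-114835422) stood at 31.8 and 29.2 in 4S-A, 52.0, 77.8 and 30.2 in KO, and 56.9, 63.2 and 63.3 in FL. In the Sox5, Npas3 and Anks1b regions both 4S-A libraries lay below all KO and FL libraries. At the Wwox region KO 3 lay between 4S-A 1 and 4S-A 2.

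Counted per gene, the comparison used the 46 genes with at least 10 interior regions, 3 of which are predicted genes that overlap. In equal-length lists both 4S-A counts were above all FL counts in 15 of 46 (32.6%), against 18.3% of all 1833 genes with that many regions, and below them in 3 (6.52%, against 11.6%). The named ones above were Adamtsl1, Astn2, Csmd1, Galntl6, Lrmda, Lrp1b, Marchf1, Pcdh9, Pde4d, Ptprt, Sgcz and Wwox, and those below were Dpp6, Npas3 and Sntg1. The other 3 above were the overlapping predicted genes, which share their interior, so the same stretch is counted 3 times in the 15. In lists as deposited 22 of 46 were above (47.8%, against 41.5%), the same 3 predicted genes among them. For KO in equal-length lists, 0 genes were above FL (against 1.85%) and Cdh13, Ptprt and Sntg1 were below (6.52%, against 1.75%). These genes held few regions in equal-length lists, at most 3 in any FL or KO library.

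**Figure D4:**
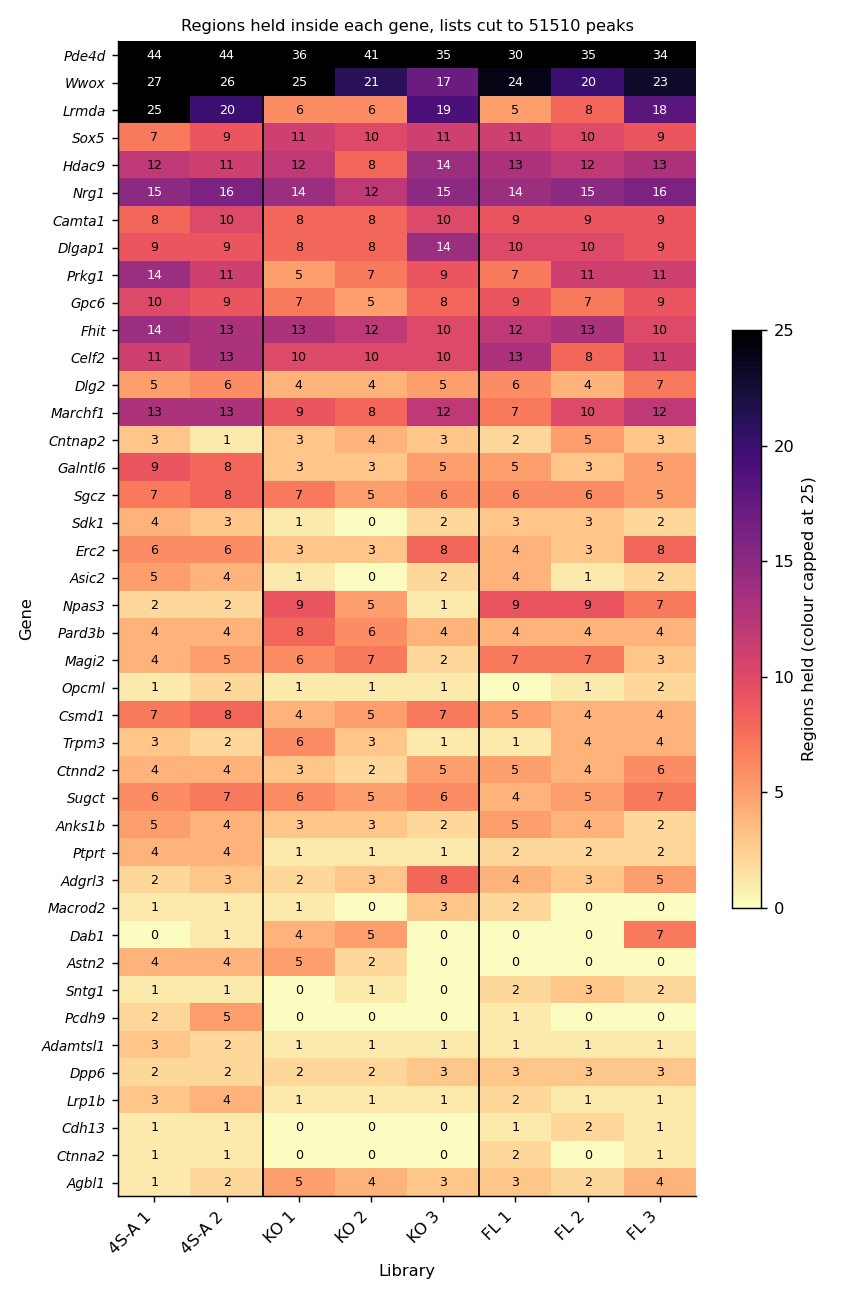
Number of regions held inside each gene (rows, characterised genes with at least 10 union regions, not all shown) in each library (columns, 4S-A, KO, FL), from lists cut to equal length, with each number printed in its cell. Pde4d has 44 in both 4S-A libraries and 30 to 41 elsewhere; Lrmda has 18 to 25 in the 4 Tie2-Cre set libraries and 5 to 8 in the other 4.

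Pde4d held 92 and 79 regions in 4S-A, 37, 56 and 73 in KO, and 30, 36 and 71 in FL, and in equal-length lists 44 and 44, 36, 41 and 35, and 30, 35 and 34. Wwox held 57 and 50 in 4S-A, 27, 31 and 30 in KO, and 24, 21 and 38 in FL. In equal-length lists Wwox had 27 and 26 in 4S-A, 25, 21 and 17 in KO, and 24, 20 and 23 in FL. In both genes the 4S-A counts were the highest of the 8 libraries, by a margin that was small in equal-length lists.

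Lrmda had its largest differences between the sets, and its 4S-A counts were also the highest of the 8 libraries. It held 55 and 52 regions in 4S-A, 7, 8 and 47 in KO, and 5, 9 and 42 in FL, the high KO and FL counts being those of KO 3 and FL 3. In equal-length lists the counts were 25 and 20 in 4S-A, 6, 6 and 19 in KO, and 5, 8 and 18 in FL. Among the 46 genes, Adgrl3, Erc2, Lrmda and Marchf1 had equal-length counts in FL 3 and KO 3 above those of all 4 Mx1-Cre set libraries (8.70%, against 15.1% of all genes), and 4 genes, Anks1b, Fhit and Magi2 among them, had counts below them (8.70%, against 4.8%). The sets differ in Cre line and control genotype, which cannot be told apart from any other difference between them.

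Pcdh9, a protocadherin gene, held 10 and 8 regions in 4S-A, 1, 0 and 0 in KO, and 1, 0 and 0 in FL. Of its 12 regions, 9 lay within 100 kb, and the strongest (chr14:93728690-93729416) stood at 57.3 and 69.4 in 4S-A and in no other library. A further region (chr14:93890611-93891244) held a Pcdh9 start site 2.16 kb inside the gene, at 44.3 and 48.1 in 4S-A. In equal-length lists the counts were 2 and 5 in 4S-A, 0, 0 and 0 in KO, and 1, 0 and 0 in FL. The gene thus carried a cluster held almost exclusively by the mutant libraries.

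Asic2, an acid-sensing ion channel gene, held 15 and 14 regions in 4S-A, 1, 1 and 3 in KO, and 4, 4 and 4 in FL. Of its regions, 9 were in both mutant libraries and no other, the strongest (chr11:80967564-80967942) at 76.8 and 77.6. In equal-length lists the 4S-A counts of 5 and 4 overlapped the FL counts of 4, 1 and 2. Other genes with more regions in 4S-A, in lists as deposited, were Ctnna2 and Lrp1b. Ctnna2, an alpha-catenin gene, held 7 and 6 in 4S-A, 0, 0 and 1 in KO, and 2, 0 and 1 in FL. Lrp1b, a large endocytic receptor gene, held 8 and 5, 1, 1 and 1, and 2, 1 and 1. Equal-length lists gave Ctnna2 1 and 1 in 4S-A, 0, 0 and 0 in KO, and 2, 0 and 1 in FL, so 4S-A and FL overlapped. Lrp1b then held 3 and 4 in 4S-A, 1, 1 and 1 in KO, and 2, 1 and 1 in FL.

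Astn2 held 8 and 7 regions in 4S-A, 5, 5 and 0 in KO, and 0, 1 and 0 in FL. One of them (chr4:66170477-66171320) stood at 68.6 and 77.5 in 4S-A and at 54.8 and 72.0 in KO 1 and KO 2, and no other library held it. Astn2 thus held regions in KO libraries of the Mx1-Cre set and in neither library of the Tie2-Cre set that carries no 4S-A mutation. Its equal-length counts were 4 and 4 in 4S-A, 5, 2 and 0 in KO, and 0, 0 and 0 in FL, so 4S-A and KO overlapped.

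Dab1, which encodes the adaptor of reelin signalling, held 4 and 3 regions in 4S-A, 4, 6 and 0 in KO, and 0, 1 and 11 in FL. Of its 12 regions, 10 lay within 100 kb near the far end of the gene. The strongest (chr4:104712273-104713112) stood at 38.2 and 46.1 in 4S-A, 73.1 (KO 1) and 70.1 (KO 2) in knockouts, and 85.9 in FL 3, while KO 3, FL 1 and FL 2 lacked it. KO minus FL was thus positive in the Mx1-Cre set and negative in the Tie2-Cre set, and the difference between the sets was not tested.

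Npas3 had fewer regions in 4S-A than in FL, with 8 and 6 regions in 4S-A, 9, 13 and 11 in KO, and 9, 11 and 15 in FL. In equal-length lists it held 2 and 2 in 4S-A, 9, 5 and 1 in KO, and 9, 9 and 7 in FL. Between 29.5 and 65.6 kb from its start, FL and KO libraries held 5 regions of which neither 4S-A library held any. Its region at 820.0 kb (chr12:54067684-54068756) was held by all 8 libraries, at 34.4 and 47.2 in 4S-A, 41.5, 52.2 and 43.7 in KO, and 30.0, 15.7 and 27.7 in FL.

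**Figure D5:**
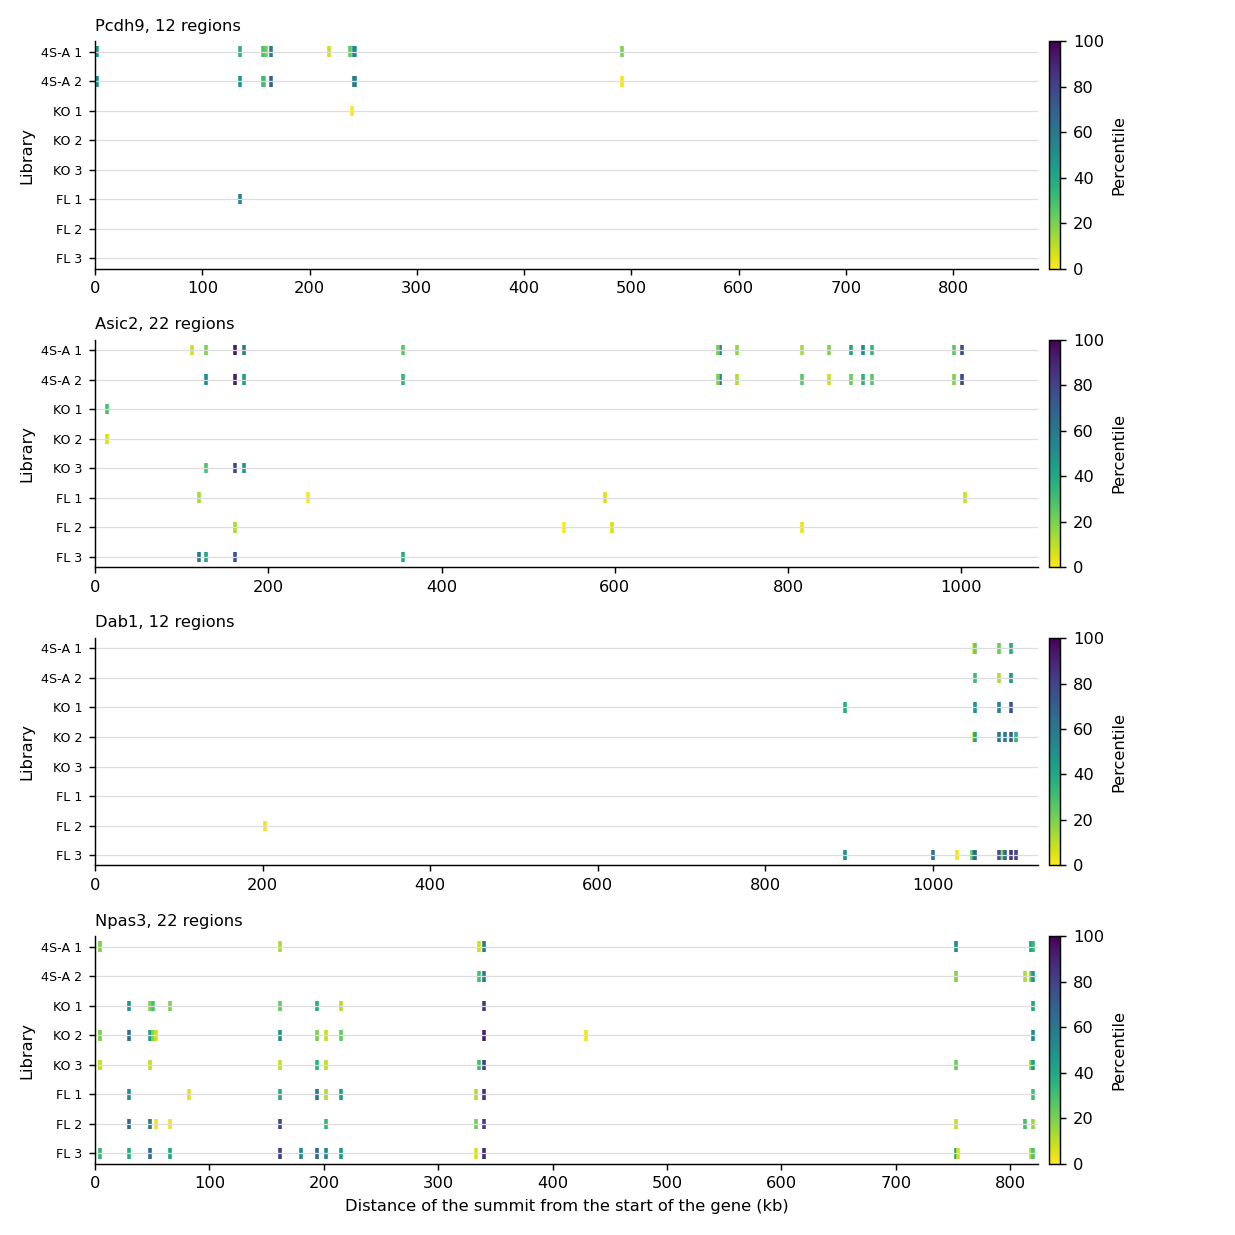
Position of each region in Pcdh9, Asic2, Dab1 and Npas3 as distance of the summit from the gene's start in kb (horizontal), with 1 row per library and the within-list percentile as colour. In Pcdh9 nearly all marks lie in the 4S-A rows. In Dab1 the marks lie towards the far end, apart from that of FL 2 at 203.0 kb, and KO 3 and FL 1 have none. In Npas3 the 4S-A rows lack the marks between 29.5 and 65.6 kb.

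By role, the genes for synaptic adhesion and cell recognition held 135 and 109 regions in 4S-A, 47, 76 and 72 in KO, and 37, 48 and 89 in FL, and in equal-length lists 43 and 45, 38, 31 and 31, and 37, 41 and 31. Channels, receptors and their partners held 44 and 41 in 4S-A, 12, 14 and 18 in KO, and 9, 16 and 26 in FL, and in equal-length lists 17 and 14, 10, 6 and 11, and 9, 8 and 14. Transcription and RNA regulators held 115 and 103 in 4S-A, 56, 78 and 103 in KO, and 56, 59 and 114 in FL. In equal-length lists those regulators had 42 and 45 in 4S-A, 50, 41 and 46 in KO, and 56, 50 and 49 in FL. Signalling enzymes and regulators, Pde4d among them, had 89 and 88 in 4S-A, 72, 77 and 69 in KO, and 63, 74 and 78 in FL in equal-length lists. The transcription and RNA regulators were the only one of the 8 lists in which both equal-length 4S-A counts lay below all FL counts. Much of that difference lay in Npas3, with 2 and 2 in 4S-A against 9, 9 and 7 in FL. Npas3 was the only gene on that list with both 4S-A counts below all FL counts.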

How the data were processed

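ATAC-seq libraries of 8 samples were analysed from 1 narrowPeak list per sample. The tools named in the submitters' processing notes are MACS2, featureCounts, Picard, Bowtie2 2.2.9 and Trim Galore 0.4.4, on mm10, with roles and settings not given in the sources used here. The authors deposited for each peak a score, a fold enrichment (a ratio to local background), a −log10 p and a −log10 q. These are not scaled between libraries, so they only rank peaks within a list, and members are weighed by presence and by percentile of −log10 q. Read depth is unknown.

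Lists were merged and annotated in Python 3.11.15 with pandas 2.3.3, numpy 2.4.6, scipy 1.17.1 and matplotlib 3.10.9, using RefSeq gene spans and start sites of GRCm38.p6. Ends of protein-coding genes defined the 1 kb margin. Of the members, 40 lay within 1 kb of an end of a gene of another type and 26 under a further protein-coding gene. Some genes are not reported here. No genome was used, so exons, introns and region sequences are not described.

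Differences of group means were tested by exact two-sided permutation over libraries, and classes by exact sign-flip tests. Merging, classes and counts of lost and gained regions were checked on simulated lists, and the exact tests on short made-up series of values. Named genes were those with the most regions, the strongest regions, the strongest lost and gained regions, the largest percentile shifts and the emptiest long genes, and genes singled out for their counts per library were chosen after their values were seen. The members, gene lists and tests were chosen with earlier results of these data known. Same-numbered KO and FL libraries deviated together over 34313 regions (r = 0.265, 0.195 and 0.523), although FL 2 and KO 1 of unlike number gave 0.246. Peak names inside the KO 1 and KO 2 lists carry other replicate numbers than the labels, so that pairing within the Mx1-Cre set is uncertain. With the replicate block the KO minus FL difference was −0.0315 points for the share (exact permutation p = 0.5) and 5.21 for the percentile (exact permutation p = 0.25).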

Additional observations from a re-analysis of the deposited data

Results flagged for a closer look

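The KO minus FL difference in regions per gene went opposite ways in the Tie2-Cre set and the Mx1-Cre set, in every library pair, for 7 of the 34 genes compared, and the difference between the sets was not tested. Of these, 5 met this in lists as deposited and 3 in equal-length lists, with only Dab1 in both. Among very long genes with at least 10 regions it applied to 15.2% as deposited and 8.70% in equal-length lists, near the 14.1% and 8.67% of all genes with that many regions. Dab1 had 0 regions in KO 3 against 11 in FL 3, a difference of −11, whereas the Mx1-Cre set had 4 and 6 in KO, and 0 and 1 in FL. In equal-length lists the Dab1 difference in the Tie2-Cre set was −7, and the Mx1-Cre set had 4 and 5 in KO against 0 and 0 in FL. Wwox had 30 in KO 3 against 38 in FL 3, a difference of −8, whereas the Mx1-Cre set had 27 and 31 in KO, and 24 and 21 in FL. Sox5 differed by −4 in the Tie2-Cre set (25 in KO 3, 29 in FL 3) and by 1.5 between the means of the Mx1-Cre set. Sugct differed by −3 (11 in KO 3, 14 in FL 3), against 2.0 in the Mx1-Cre set, and Lsamp by −1 (4 in KO 3, 5 in FL 3), against 3.5. In equal-length lists these 4 genes no longer went opposite ways in every pair. Wwox then had 17 in KO 3 against 23 in FL 3, and 25 and 21 in KO against 24 and 20 in FL of the Mx1-Cre set. Sox5 had 11 in KO 3 against 9 in FL 3, and 11 and 10 in KO against 11 and 10 in FL. Sugct had 6 in KO 3 against 7 in FL 3, and 6 and 5 in KO against 4 and 5 in FL. Lsamp had 4 in KO 3 against 2 in FL 3, and 4 and 4 in KO against 0 and 1 in FL, the same direction in both sets.

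In equal-length lists 2 further genes went the other way round. Dlgap1 differed by 5 in the Tie2-Cre set (14 in KO 3, 9 in FL 3) and by −2.0 in the Mx1-Cre set (8 and 8 in KO, 10 and 10 in FL). Camta1 differed by 1 (10 in KO 3, 9 in FL 3) and by −1.0 (8 and 8 in KO, 9 and 9 in FL). The Tie2-Cre set has 1 KO and 1 FL library, so its differences have no replicate check.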

How the results depend on the processing

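Settings tried were lists cut to equal length, peaks with −log10 q of at least 5, peaks cut to 100 bp each side of the summit, genes of 1 Mb or more, 5 kb from gene ends, ranking by fold enrichment, the replicate block and leaving out each library. Ends of genes of every type and removal of Pde4d, Wwox and Lrmda were chosen after seeing the data. Leaving out single libraries aside, 79 values kept their direction and side of the 0.05 threshold (counts: stayed within 1.5 times), 12 moved and 2 reversed. For the KO minus FL and 4S-A minus FL differences no p below 0.05 was possible, single-library settings included. Only a change of direction could therefore alter the call for those differences. The reversals were the KO minus FL share, 0.0075 with −log10 q of at least 5, and the percentile of very long minus shorter genes, 1.31 by fold enrichment. The replicate block leaves the mean difference as it was and cannot give a p below 0.05, so it could not change a call.

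Without single libraries the KO minus FL share ranged from −0.0617 to 0.0075, reversing without FL 3. Gains in 4S-A against FL 3 ranged from 264 to 335 and losses from 148 to 194, and gains in KO against FL from 2 to 38 and losses from 5 to 11. Of the single-library results, 54 did the same, 7 moved and 1 reversed. For 4S-A against FL 3, gains were 123 and losses 62 with genes of 1 Mb or more, 88 and 72 in equal-length lists, and 66 and 62 in equal-length lists without Pde4d, Wwox and Lrmda. For KO against FL, gains were 1 and losses 3 in equal-length lists, and 0 and 3 without those genes as well. Gains were 5 with peaks cut around the summit, and losses 0 with genes of 1 Mb or more. Fewer genes lower a count by construction, and otherwise the cause was not tested. With 3 against 3 libraries no p below 0.1 is possible and with 2 against 3 none below 0.2, and unknown read depth limits what an absent peak can show.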
